A study of Bos taurus with 6 samples.

Results

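The miR-2284 and miR-2285 family was followed in extracellular vesicles (EVs) released by cultured bovine granulosa cells, the somatic cells that surround the oocyte in the follicle. Members were taken as all entries named bta-miR-2284 or bta-miR-2285, whatever their letters or arm suffix, and 60 of the 512 listed miRNAs (11.7%) met this rule, 16 named miR-2284 and 44 named miR-2285. Primary granulosa cells of small antral follicles (3 to 6 mm), taken from slaughterhouse ovaries, were first grown at 37 °C in medium with exosome-depleted fetal bovine serum. They were then kept at 37 °C (control-EVs, n = 3) or exposed to 42 °C (HS-EVs, n = 3) for 24 h, with no other treatment in either group. The EVs were precipitated from the spent medium, and EV RNA from the serum or from other follicular cells is not separated from that of granulosa cells by this design. Fewer vesicles and less RNA per vesicle cannot be told apart either, since the values are relative.

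miRNAs are short RNAs that pair with target mRNAs, mainly through the seed near their 5′ end, and lower their stability or translation. The miR-2284 and miR-2285 genes form one of the largest miRNA families of ruminants, spread as many similar copies over the cattle genome. Reads of similar copies are hard to assign to 1 gene, and the authors' counting could have split or shared reads between members, so each member's value is uncertain in that respect. RefSeq's gene list for ARS-UCD2.0, a later assembly than the one the authors mapped to, gives the family 191 of 1032 miRNA genes (18.5%) under 138 names, 43 of them MIR2284 genes and 148 MIR2285 genes. A name stands for several genes in 25 cases, up to 7 genes a name. Of the 60 entries, 55 matched an annotated name.

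The reads recovered from the deposited values numbered 274434 to 2360980 per library, but bta-miR-1246 took 59.9% to 98.6% of them. These totals are larger than the numbers of reads that the study lists as mapped to annotated miRNAs in the same libraries, by a factor that differs between libraries. The cause was not tested, so recovered reads may not be independent molecules and the counting intervals may be too narrow. The reads outside bta-miR-1246, which carry the family, were 76623, 235634 and 73569 at 37 °C (replicates 1 to 3) and 34141, 123448 and 86705 at 42 °C. HS-EVs replicate 1 stood apart, with the most reads in all and the fewest outside bta-miR-1246. A single read there was worth 4.11 normalized counts, against 0.697 to 1.98 in the other libraries. All 8 listed serum and blood miRNAs and 6 of 8 miRNAs listed for granulosa cells had a read in every library, and no miRNA of the second list is exclusive to granulosa cells.

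In total 3262 reads fell on the family. They numbered 387, 1113 and 369 at 37 °C (replicates 1 to 3) and 212, 704 and 477 at 42 °C. As a share of the reads outside bta-miR-1246, the family made up 0.505%, 0.472% and 0.502% at 37 °C (replicates 1 to 3), with 95% Wilson intervals of 0.457% to 0.558%, 0.445% to 0.501% and 0.453% to 0.555%. At 42 °C it made up 0.621%, 0.570% and 0.550%, with intervals of 0.543% to 0.710%, 0.530% to 0.614% and 0.503% to 0.602%. The intervals describe counting error alone. Every HS-EVs library thus lay above every control-EVs library, although the intervals of neighbouring libraries overlapped. The share averaged 0.493% ± 0.0180 (SD, n = 3) at 37 °C and 0.580% ± 0.0365 (SD, n = 3) at 42 °C, a ratio of 1.18. No test is given for this sum over chosen members.

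**Figure D1:**
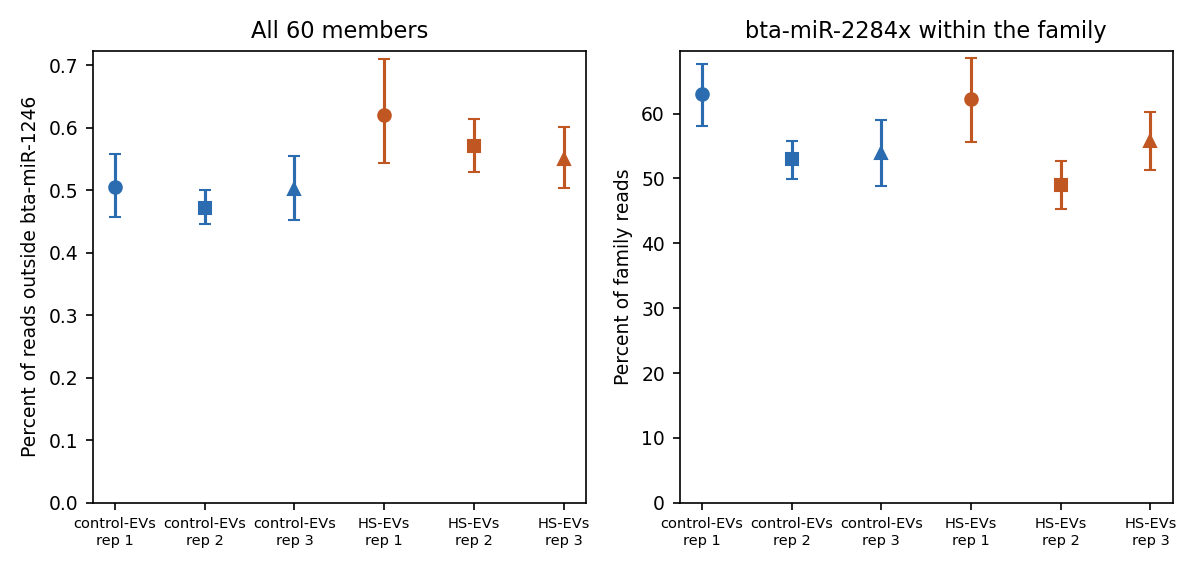
Left, the percent of reads outside bta-miR-1246 that fell on all 60 members in each library; right, the percent of family reads that fell on bta-miR-2284x. Points are single libraries with 95% Wilson intervals; the HS-EVs libraries sit at 0.550% to 0.621% and the control-EVs libraries at 0.472% to 0.505% on the left, while the groups overlap on the right.

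The higher share in HS-EVs depended on what it was divided by. The liver-derived serum miRNA bta-miR-122 and the other 7 serum and blood miRNAs together took 9.85%, 16.0% and 15.3% of the reads outside bta-miR-1246 at 37 °C (replicates 1 to 3) and 10.5%, 7.68% and 5.86% at 42 °C. Most of this was bta-miR-122, with normalized counts of 12232, 25399.7 and 21351 against 13633, 9840.1 and 7524. The list did not move one way, since bta-miR-150 was 29.4, 18.1 and 25.7 against 45.2, 31.9 and 66.8. The part of serum RNA in the share was not tested. With bta-miR-122 also left out of the denominator, the family share averaged 0.567% ± 0.0187 (SD, n = 3) at 37 °C and 0.628% ± 0.0545 (SD, n = 3) at 42 °C, and the groups overlapped, with HS-EVs replicate 3 at 0.581% and control-EVs replicate 3 at 0.588%. With the whole list left out, which is nearly the same denominator, the shares were 0.571% and 0.632% and the groups again overlapped. Divided by all reads, the order turned, with 0.134% ± 0.0558 (SD, n = 3) at 37 °C and 0.0778% ± 0.0653 (SD, n = 3) at 42 °C. The groups overlapped, since HS-EVs replicate 2 (0.139%) lay above control-EVs replicates 1 and 3 (0.0777% and 0.134%). HS-EVs replicate 1 was by far the lowest library, at 0.00898%. The summed normalized count of the family was 710, 776 and 729 in control-EVs and 871, 774 and 777 in HS-EVs, so that the groups overlapped. Without HS-EVs replicate 1, the share outside bta-miR-1246 differed by 0.0672 percentage points in place of 0.0875.

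The family's share was larger than that of the 62 entries numbered bta-miR-2286 to bta-miR-2489, a run of cattle miRNAs described under neighbouring numbers. These took 0.131% ± 0.0357 (SD, n = 3) of the reads outside bta-miR-1246 at 37 °C and 0.153% ± 0.0266 (SD, n = 3) at 42 °C, and in every library they took less than the family.

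Most members were rare. Of the 60 members, 11 had at least 1 read in every library, 31 in 2 to 5 libraries and 18 in a single library. The 49 members without a read in every library held 197 reads together (6.04% of the family's reads), with at most 7 reads in any library. The median member had 3 reads over all 6 libraries, against 20.5 for the 452 miRNAs outside the family, and 43 members (71.7%) had 10 reads or fewer, against 42.7% outside the family and 75.8% of the entries bta-miR-2286 to bta-miR-2489. Each listed miRNA had a read somewhere, so genes of the family that gave no read are not counted here.

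The study called a miRNA detected where at least 2 libraries of a group reached 10 normalized counts. This held for 9 members in control-EVs and 10 in HS-EVs, of which 8 were shared. Without HS-EVs replicate 1, both other HS-EVs libraries reached it for 9 members. Detection in either group held for 11 of 60 members (18.3%), for 42.7% of the miRNAs outside the family and for 9.68% of bta-miR-2286 to bta-miR-2489. The member detected only in control-EVs was bta-miR-2284t-5p, and those detected only in HS-EVs were bta-miR-2285k and bta-miR-2285av. All 3 had reads in all 6 libraries.

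The number of members with a read followed the depth outside bta-miR-1246. It was 26, 42 and 27 at 37 °C (replicates 1 to 3) and 20, 37 and 27 at 42 °C. If each library were thinned to the 34141 reads of the shallowest, the expected number would be 18.6, 18.5 and 18.4 in control-EVs and 20, 22.2 and 18.5 in HS-EVs. The libraries thus differed far less at equal depth than as sequenced. Reads in 1 group alone were found for 23 members, 14 in control-EVs and 9 in HS-EVs, but these 23 held 38 reads in all and at most 3 in any library. Of the 23, bta-miR-2284t-3p, with 6 reads in control-EVs, had the most.

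**Figure D2:**
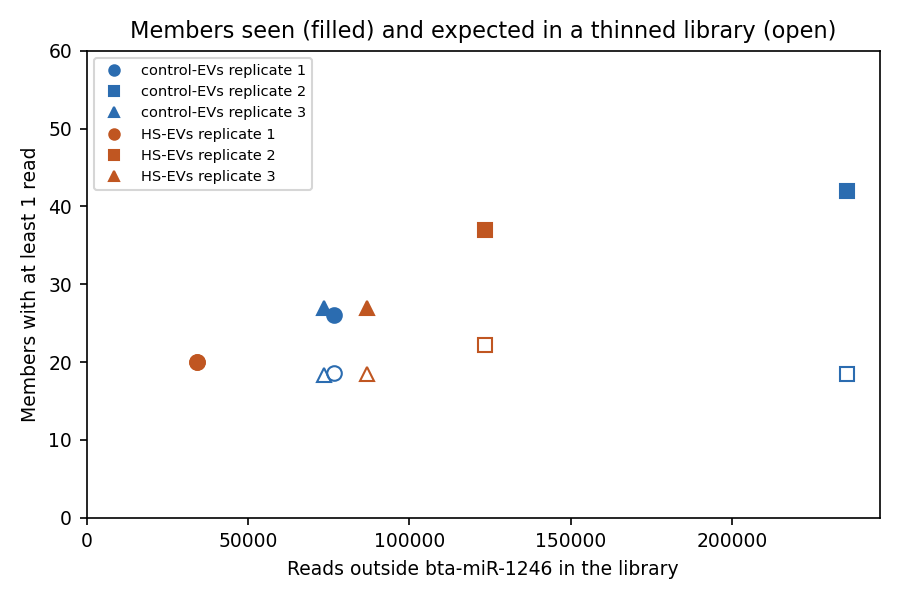
Members with at least 1 read in each library (filled) against the library's reads outside bta-miR-1246, and the number expected after thinning to 34141 reads (open). Colours are the groups and shapes the replicate numbers; the filled points range from 20 to 42 and the open points from 18.4 to 22.2, and both points of HS-EVs replicate 1, the shallowest library, coincide at 20.

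The family was dominated by bta-miR-2284x. It held 1775 of the 3262 reads (54.4%), and between 49.0% (HS-EVs replicate 2) and 63.0% (control-EVs replicate 1) of the family's reads in each library. Together with bta-miR-2284ab, bta-miR-2285bf and bta-miR-2284w it held 77.56% to 83.98% in each library. The entries named miR-2284 held 78.1% of the family's reads with 16 members, and the 44 entries named miR-2285 held 21.9%. By mean normalized count over the 6 libraries, bta-miR-2284x ranked 45 of the 512 miRNAs, bta-miR-2284ab 99, bta-miR-2285bf 105 and bta-miR-2284w 142, and the next member, bta-miR-2285t, ranked 165.

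In the annotation, MIR2284X is 1 gene within the span of TIAM1, which encodes an activator of the small GTPase Rac. MIR2284AB lies within AFF1, which encodes a transcription elongation factor subunit, and MIR2284W within DOCK11, which encodes an activator of the small GTPase Cdc42. The name MIR2285BF stands for 2 genes, within FRAS1 and PCYT1B. Of all 191 genes of the family, 125 (65.4%) lie within the span of a protein-coding gene, close to the 65.3% of the 841 other miRNA genes. The strand of these genes was not compared. The 10 listed members with several annotated genes held 16.9% of the family's reads and the 45 with a single gene 82.5%, of which bta-miR-2284x alone made up 54.4%. The median member had 17 reads among those with several genes and 3 reads among those with a single gene, and 4 of 10 against 7 of 45 were detected in either group.

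The normalized count of bta-miR-2284x was 448, 411 and 393 at 37 °C (replicates 1 to 3) and 542, 379 and 434 at 42 °C. The groups overlapped, and the highest and the lowest library were both HS-EVs. It averaged 417 ± 27.9 (SD, n = 3) at 37 °C and 452 ± 83.0 (SD, n = 3) at 42 °C. In limma's test over all 512 miRNAs it had a log2 fold change of 0.10 and an adjusted p of 0.958. The 95% confidence interval from -0.85 to 1.05 (standard error 0.43) spans changes of about 2-fold in either direction. Limma draws this width in part from the spread of all 512 miRNAs, most of them rarer. With a trend on abundance, limma gave an interval from -0.58 to 0.78 (standard error 0.35). Without HS-EVs replicate 1 the log2 fold change of bta-miR-2284x was -0.039. With all reads as the scale, its log2 fold change became -1.42 and the median of the 512 miRNAs became -0.75.

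Over the 6 libraries, the SD of log2(normalized count + 1) of bta-miR-2284x was 0.18, the 6th smallest of the 92 miRNAs with a mean normalized count of 100 or more, whose median SD was 0.39. Its highest library, HS-EVs replicate 1, was 1.43 times its lowest. Without HS-EVs replicate 1 the SD was 0.098, the smallest of the 92 (rank 1), and the ratio 1.18. On reads outside bta-miR-1246 its SD was 0.22 (rank 10 of 92), and on all reads 1.49 (rank 16 of 92, highest library 17.9 times the lowest), so its steadiness held relative to the miRNAs other than bta-miR-1246.

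The normalized count of bta-miR-2284ab was 49.6, 116 and 86.9 in control-EVs and 86.3, 94.6 and 63.6 in HS-EVs. That of bta-miR-2285bf was 67.9, 68.3 and 86.9 in control-EVs and 57.5, 83.6 and 78.2 in HS-EVs. In both members the groups overlapped, with log2 fold changes of 0.01 (bta-miR-2284ab) and -0.03 (bta-miR-2285bf). For bta-miR-2284w it was 31.2, 36.3 and 19.8 in control-EVs and 32.9, 42.9 and 39.1 in HS-EVs, with a log2 fold change of 0.42 ± 0.45 (limma's standard error, adjusted p = 0.873). It was 0.17 without control-EVs replicate 3 and lay between 0.34 and 0.60 without any other single library. HS-EVs was higher in each same-numbered pair of libraries, but control-EVs replicate 2 exceeded HS-EVs replicate 1. As a share of the reads outside bta-miR-1246, the groups of bta-miR-2284w did not overlap (0.0193% ± 0.00493 at 37 °C and 0.0276% ± 0.00408 at 42 °C, SD, n = 3).

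**Figure D3:**
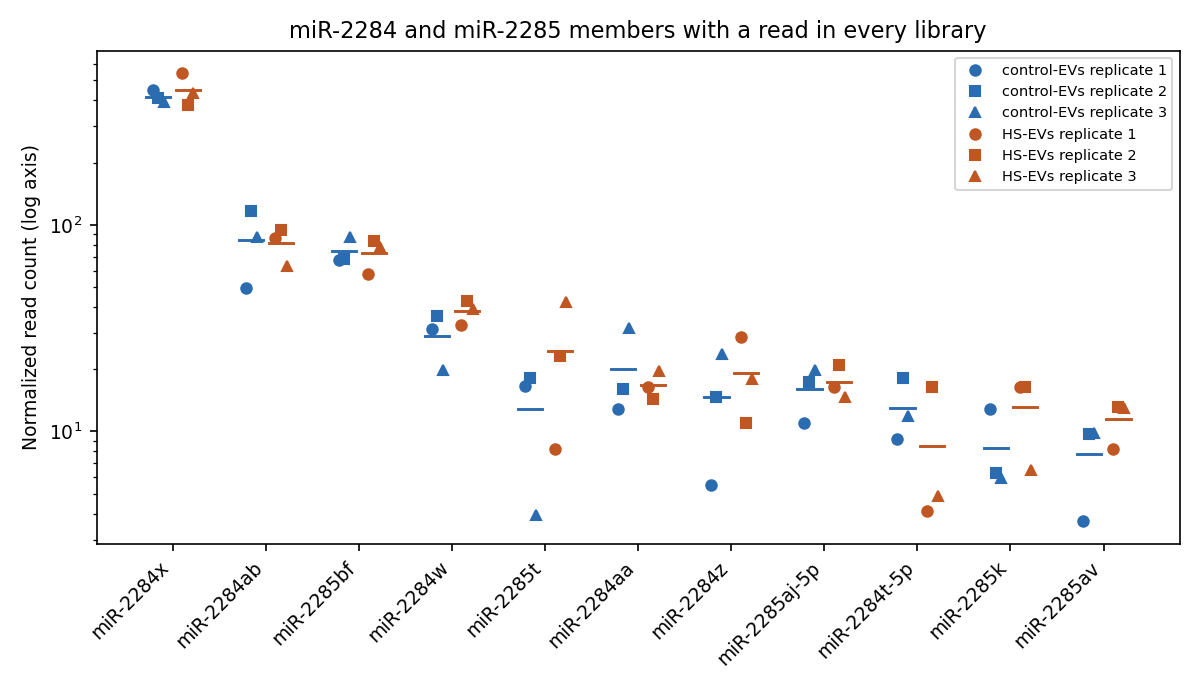
Normalized read count (log axis) of the 11 members with a read in all 6 libraries. Points are libraries, shapes the replicate numbers and bars the group means; bta-miR-2284x lies at 379 to 542 and every other member at 116 or below, and the groups overlap in each of the 11.

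Below these, 7 members had a read in every library at mean normalized counts of 9.63 to 18.7. The most variable was bta-miR-2285t, whose gene lies within the span of FCGR2B, an Fc receptor gene of immune cells. Its normalized count was 16.5, 18.1 and 3.95 at 37 °C (replicates 1 to 3) and 8.22, 23.1 and 42.4 at 42 °C, from 2 to 26 reads. The groups overlapped and the highest library was 10.7 times the lowest. Its log2 fold change of 0.85 was the largest increase among the 11 members (95% confidence interval -0.74 to 2.43 from limma). That order rested on single libraries. The value was 0.22 without control-EVs replicate 3 and 0.76 without HS-EVs replicate 2, where bta-miR-2284z stood higher at 0.91 and 0.80. It was 0.33 without HS-EVs replicate 3, where bta-miR-2285k stood at 0.98, and 1.45 without HS-EVs replicate 1.

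The multicopy members bta-miR-2284aa (4 genes), bta-miR-2284z (7 genes) and bta-miR-2285k (5 genes) had mean normalized counts of 20.2 ± 10.0, 14.6 ± 9.10 and 8.35 ± 3.90 in control-EVs (SD, n = 3). In HS-EVs their means were 16.8 ± 2.65, 19.2 ± 8.95 and 13.2 ± 5.74 (SD, n = 3). In each of them the groups overlapped. Their log2 fold changes of -0.16, 0.48 and 0.57 ranged, with 1 library left out at a time, from -0.42 (without control-EVs replicate 1) to 0.20 (without control-EVs replicate 3), from -0.056 to 0.91 (without the same 2 libraries) and from 0.37 (without HS-EVs replicate 2) to 0.98 (without HS-EVs replicate 3). Without HS-EVs replicate 1 they were -0.15, 0.15 and 0.37. The single-gene members bta-miR-2285aj-5p and bta-miR-2285av had 16.1 ± 4.53 and 7.77 ± 3.55 in control-EVs and 17.3 ± 3.21 and 11.5 ± 2.83 in HS-EVs (SD, n = 3). Their log2 fold changes were 0.13 and 0.58, and their groups overlapped too. Without control-EVs replicate 1 these values were -0.11 and 0.18. Over the 11 members, log2 fold changes ranged from -0.75 to 0.85, 8 above and 3 below 0, and the smallest unadjusted p-value from limma was 0.220.

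Both arms of the hairpin of bta-miR-2284t were listed, whose gene lies within the span of SPON1. The normalized count of bta-miR-2284t-5p was 9.18, 18.1 and 11.9 in control-EVs and 4.11, 16.5 and 4.89 in HS-EVs, lower in HS-EVs in each same-numbered pair, with overlapping groups. The fit gave it a log2 fold change of -0.75 ± 0.57 (limma's standard error, adjusted p = 0.873). The value was -1.31 without HS-EVs replicate 2 (unadjusted p = 0.0181 from limma) and -0.42 without HS-EVs replicate 1. The other arm, bta-miR-2284t-3p, had 3, 1 and 2 reads at 37 °C (replicates 1 to 3) and 0 reads in all 3 libraries of 42 °C. Its listed values did not overlap, and limma gave an unadjusted p of 0.00651 (adjusted p = 0.626). Since 0 reads allow a true count of up to 3, the HS-EVs libraries allow up to 12.3, 3.30 and 4.89 normalized counts, where control-EVs had 5.51, 0.697 and 3.95. No fold change is therefore given.

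In limma's test over all 512 miRNAs, 0 members reached the study's threshold (adjusted p of 0.3 or less, and at least a log2 change of 1 in size), as for all miRNAs (0%). The smallest adjusted p of a member was 0.626 from limma. The study applied its threshold with edgeR and reported miRNAs enriched in HS-EVs, none of them a member. At an unadjusted p of 0.05 or less, limma gave 3 members of 60 (5%), against 4.88% of all miRNAs. Of these 2 were higher in HS-EVs (2.73% of all miRNAs) and 1 was lower (2.15% of all miRNAs). With 1 library left out the count ranged from 1 member to 4. It was 4 without HS-EVs replicate 1 (35 of all miRNAs), 1 without HS-EVs replicate 2 (bta-miR-2284t-5p, with 30 of all miRNAs) and 1 without HS-EVs replicate 3 (bta-miR-2284t-3p, with 20 of all miRNAs). Listed values that did not overlap between groups were found in 2 of 60 members, bta-miR-2285f and bta-miR-2284t-3p, against 6.45% of all miRNAs. On reads outside bta-miR-1246 it was 3 of 60, against 6.84%. All of these shares lie near or under the background and are no result about the family. On the recovered reads, edgeR's quasi-likelihood test also gave 0 members past the threshold (0.586% of all miRNAs) and 1 at an unadjusted p of 0.05 or less (5.08% of all miRNAs). DESeq2 gave 0 members past the threshold (0% of all miRNAs) and 0 at an unadjusted p of 0.05 or less (1.95% of all miRNAs).

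The 2 members higher in HS-EVs at an unadjusted p of 0.05 or less were bta-miR-2285f and bta-miR-2285az, both with few reads. The gene names MIR2285F and MIR2285AZ stand for 2 genes and 1 gene. For bta-miR-2285f, 0, 4 and 0 reads were found at 37 °C (replicates 1 to 3) and 1, 6 and 3 reads at 42 °C, that is 0, 2.79 and 0 against 4.11, 6.60 and 4.89 normalized counts. The listed values did not overlap, but the 0 reads of control-EVs replicates 1 and 3 allow up to 5.51 and 5.93 normalized counts, above HS-EVs replicates 1 and 3. No fold change is therefore given here either. The unadjusted p was 0.00772 from limma (adjusted p = 0.626), 0.0387 from limma with a trend, 0.0874 from edgeR and 0.205 from DESeq2. For bta-miR-2285az, 0, 2 and 0 reads stood against 2, 1 and 1 reads, under the floor of 3 reads in every library, and no fold change is given. Its unadjusted p was 0.0476 from limma (adjusted p = 0.873), 0.0872 from limma with a trend, 0.295 from edgeR and 0.275 from DESeq2. Without control-EVs replicate 2, limma called 4 of the 512 miRNAs (0.781%), of which bta-miR-2285f and bta-miR-2284t-3p were members. In the fits without any other single library, limma called 0 members and 0 to 3 of all 512 miRNAs.

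**Figure D4:**
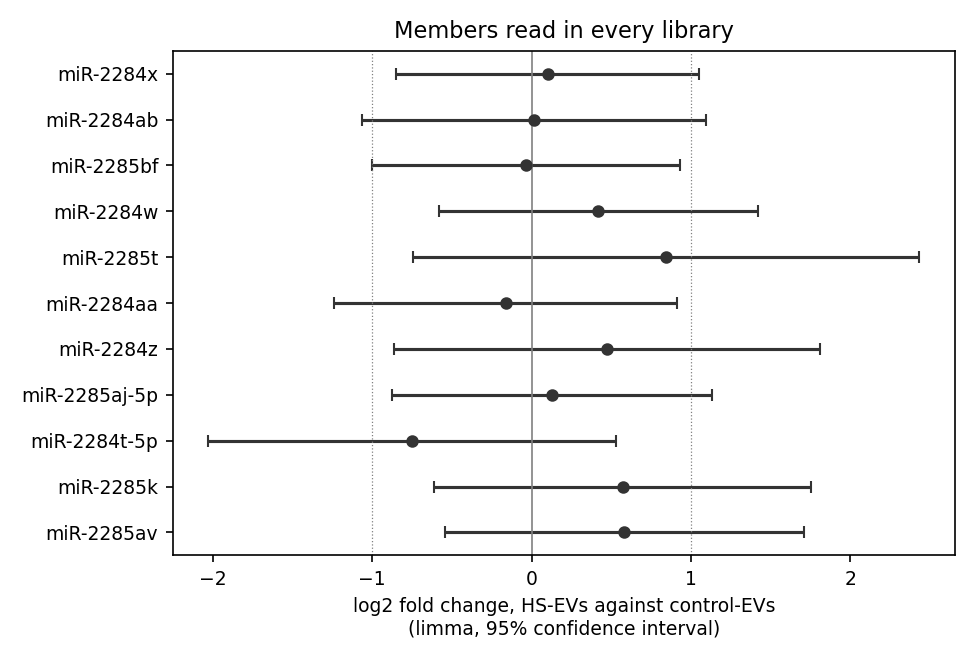
Log2 fold change of HS-EVs against control-EVs with its 95% confidence interval from limma (n = 3 per group) for the 11 members with a read in every library. The widths draw in part on the spread of all miRNAs tested. Dotted lines mark -1 and 1; the values lie between -0.75 and 0.85, and the intervals of all 11 include 0.

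Over all 60 members the median log2 fold change was 0.04, and over all 512 miRNAs it was 0.01. The sign was positive in 31 members and negative in 29, where 50% of all miRNAs were positive. The middle of the members' list lay between -0.40 and 0.47 (lower and upper quartile), close to the -0.38 and 0.45 of all miRNAs. These summaries include the 23 members with 0 reads in 1 group, whose fitted values depend on the pseudocount. With 1 library left out, the members' median ranged from -0.059 (without HS-EVs replicate 2) to 0.083 (without control-EVs replicate 3). It was 0.26 from edgeR (all miRNAs -0.015) and 0.17 from DESeq2 (all miRNAs -0.014).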

How the data were processed

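Small RNA of EVs was sequenced with UMI-tagged libraries, 3 of control-EVs and 3 of HS-EVs. The authors trimmed reads (cutadapt 1.11, per the submitters' processing notes), merged reads of identical UMI, aligned with Bowtie2 2.2.2 to UMD3.1 and then to miRBase, and deposited a TMM-normalized read count for each miRNA and library, a signal that is no raw count. Every deposited value (100%) was within 0.001 of a whole multiple of the library's smallest value above 0, which was taken as 1 read. If the rarest miRNA had more than 1 read, totals are too low by that factor.

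All 512 miRNAs were tested with limma 3.58.1 (R 4.3.3) on log2(normalized count + 1), unfiltered, with Benjamini-Hochberg adjustment. A fold change on this scale understates that of rare miRNAs. Alternatives on recovered reads used edgeR 4.0.16 and DESeq2 1.42.0, and limma was tested on simulated data. Named members were the 8 most abundant, those with reads in all libraries, those at an unadjusted p of 0.05 or less, and those with non-overlapping groups and 10 or more reads. Members and lists were chosen with earlier results of these data known. The marker lists held 8 miRNAs each. P-values measure the spread between these libraries, whose source cultures the labels do not name. In limma this spread is taken in part from all miRNAs tested. With a trend it is taken almost wholly from miRNAs of similar abundance. All 15 pairs of libraries differed beyond sampling noise. Gene names came from RefSeq (ARS-UCD2.0), so no positions are given.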

Additional observations from a re-analysis of the deposited data

How the results depend on the processing

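The counts limit the precision of the members' values, since 43 of 60 had 10 reads or fewer. Scaling by all reads moved the members' median log2 fold change from 0.04 to -0.41 (all miRNAs -0.75), gave a family share of all reads with a difference of -0.056 percentage points, and turned bta-miR-2284x (-1.42), bta-miR-2284ab (-1.46), bta-miR-2284w (-0.97), bta-miR-2285t (-0.27), bta-miR-2284z (-0.90), bta-miR-2285aj-5p (-1.16), bta-miR-2285k (-0.67) and bta-miR-2285av (-0.55) negative. Without bta-miR-2284x the share differed by 0.0428 percentage points. With at least 1 read asked for, 29 members were detected in control-EVs and 24 in HS-EVs. These counts are not at equal depth, since reads outside bta-miR-1246 averaged 128609 in control-EVs and 81431 in HS-EVs.

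The sign of bta-miR-2284ab also turned with edgeR (-0.085, and -0.054 with the replicate block) and DESeq2 (-0.12), and that of bta-miR-2285bf on reads outside bta-miR-1246 (0.072). Leaving out each library in turn turned the sign of small fold changes, which then lay between -0.039 and 0.22 (bta-miR-2284x), -0.32 and 0.29 (bta-miR-2284ab), -0.14 and 0.13 (bta-miR-2285bf), -0.42 and 0.20 (bta-miR-2284aa), -0.056 and 0.91 (bta-miR-2284z) and -0.11 and 0.29 (bta-miR-2285aj-5p). The sign held for the other 5 members with a read in every library, from -1.31 to -0.42 (bta-miR-2284t-5p), 0.17 to 0.60 (bta-miR-2284w), 0.18 to 0.79 (bta-miR-2285av), 0.22 to 1.45 (bta-miR-2285t) and 0.37 to 0.98 (bta-miR-2285k). The number of members past the threshold was between 0 and 2 with 1 library left out; the 2 came without control-EVs replicate 2, where the remaining control-EVs libraries had 0 reads of bta-miR-2285f. The replicate block gave 0 members past the threshold and 0 of all miRNAs (smallest adjusted p of a member 0.588 from limma). The mean share difference with the block was the same, 0.0875 percentage points. Deviations of same-numbered libraries correlated by 0.14, 0.14 and 0.08, so the numbers were not taken as pairs, although each of the 6 libraries correlated best with its own number. The alternatives added after seeing the data were the denominators without serum miRNAs, the thinning, edgeR with the block, the spread of bta-miR-2284x without HS-EVs replicate 1, and the share without both replicates 1, which gave 0.0733 percentage points.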
